A study of Mus musculus with 12 samples.

Results

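A group of 9 genes that govern survival and death of a cell was followed in cardiomyocytes with and without desmin, the muscle intermediate filament protein. They were Bcl2, Bcl2l1 and Mcl1, Bax and Bak1, Bbc3, Bnip3 and Bnip3l, and Ripk3, taken by gene symbol as 9 of the 21493 genes counted in every library. Each symbol matched 1 gene, all 9 are annotated as protein coding, and all 9 passed the filter on low counts that left 13158 genes for testing. Poly-A RNA came from heart cells of 3-month-old mice, isolated by perfusion with trypsin and collagenase D and harvested straight after isolation. The 4 groups were Des+/+ non-swim, Des+/+ swim, Des-/- non-swim and Des-/- swim, with 3 libraries in each, where swim stands for mice put through swimming as an exercise stress. Des-/- mice lack desmin in every cell, so a difference by genotype includes whatever the heart has undergone before and since birth. By the methods of the study a replicate is a pool of cells from more than 1 mouse. The methods also describe both genotypes as lines with an αMHC-GFP transgene on a 129SV background, which the labels of these libraries do not name.

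The proteins of the Bcl2 family meet at the outer membrane of the mitochondrion. Bcl2, Bcl2l1 (Bcl-xL) and Mcl1 hold back Bax and Bak1, which form pores when freed, and the pores release cytochrome c and start the caspase cascade. BH3-only proteins such as Bbc3 (Puma), a classical p53 target, bind the protective members and set the pore formers free. Bnip3 and Bnip3l (Nix) are related BH3-type proteins that act mainly as receptors for mitophagy, the removal of mitochondria by autophagy, and Bnip3 is a classical target of hypoxia-inducible factor (HIF). Ripk3 is the kinase that phosphorylates Mlkl in necroptosis, a lytic form of death that does not need caspases. Cardiomyocytes hardly divide and are packed with mitochondria, and loss of desmin is known to disturb the position of these mitochondria.

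The promoters of Bnip3 and Bax are shown because these members, with Bak1, differed between the genotypes without swimming, and the Bak1 window held none of the motif searched for. The windows run from 250 bases before to 50 bases after the annotated start, are given 5′ to 3′ on the strand of the gene, and come from RefSeq on GRCm38.p6. Capitals mark the HIF core, searched as ACGTG or GCGTG on both strands, so that the palindrome CACGTG counts once on each strand.
Bnip3, chr7:138909457-138909756, minus strand: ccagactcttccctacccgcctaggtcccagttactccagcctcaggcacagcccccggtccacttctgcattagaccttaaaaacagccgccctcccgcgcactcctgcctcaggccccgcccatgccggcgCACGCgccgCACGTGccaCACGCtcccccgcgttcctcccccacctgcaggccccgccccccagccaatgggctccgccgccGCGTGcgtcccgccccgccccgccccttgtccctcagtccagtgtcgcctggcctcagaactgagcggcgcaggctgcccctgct
Bax, chr7:45466849-45467148, minus strand: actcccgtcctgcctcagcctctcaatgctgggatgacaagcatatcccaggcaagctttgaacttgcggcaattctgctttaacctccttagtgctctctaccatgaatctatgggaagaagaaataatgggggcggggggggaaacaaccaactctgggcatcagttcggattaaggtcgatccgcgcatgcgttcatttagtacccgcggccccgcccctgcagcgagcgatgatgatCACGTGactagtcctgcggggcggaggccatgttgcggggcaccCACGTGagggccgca
The Bnip3 window held 5 matches to the core, and 1.66% of the 32851 windows of this length held 5 or more. The Bax window held 4 matches, all from 2 copies of CACGTG, against 3.86% of windows with 4 or more. G and C made up 71.7% of the Bnip3 and 57.3% of the Bax window. The shares are over all windows and were not matched for base composition. A core match of any number stood in 43.8% of all windows. Windows were found for 8 of the 9 members, and Bcl2, Mcl1 and Bak1 had 0 matches in theirs. Ripk3 had 3 matches in its window, Bbc3 had 8 in 3 windows, some of which overlap, and Bcl2l1 had 2 in 3 windows. The Bax window also held 1 match to the p53 decamer, which 8.36% of windows held. These matches are descriptions of letters, not of bound sites.

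Reads assigned to genes ranged from 4320819 to 12072443 per library, and the Des-/- swim group was the shallowest, at 4320819 to 6521963. The deleted gene, Des, stood at 972.9 to 3647 CPM (read counts scaled to library size) in the Des+/+ and at 50.3 to 100.5 CPM in the Des-/- libraries. Genes are called at an adjusted p under 0.05 in edgeR's quasi-likelihood test. Of all genes tested, 14.0% were called higher and 18.0% lower in Des-/- without swimming, and 5.01% and 5.57% after it. Of 10 cardiomyocyte markers, 10 were called lower in Des-/- non-swim than in Des+/+ non-swim libraries, with summed levels of 6338 to 30737 against 68618 to 101528 CPM. After swimming 1 of these 10 was called lower, but 0 of 10 had a log2 difference above 0 (median -0.80). The sums were 15870 to 26860 against 32868 to 53778 CPM. Of 10 fibroblast markers, 10 were called higher in Des-/- non-swim libraries (8459 to 40195 against 3324 to 3890 CPM) and 2 after swimming (4052 to 13733 against 2332 to 3422 CPM). The log2 difference after swimming was above 0 for 10 of 10 (median 1.17). Of 10 macrophage markers, 8 were called higher without swimming (276 to 2491 against 141 to 211 CPM) and 1 after it (156 to 991 against 156 to 225 CPM). Here too 10 of 10 were above 0 after swimming (median 1.21). Genes of the response to cell isolation, among them Fos, Atf3, Hspa1a and Hspa1b, were called higher for 9 of 10 without (4160 to 8368 against 1326 to 2083 CPM) and 7 of 10 after swimming (3575 to 5776 against 1681 to 1969 CPM). The log2 difference after swimming was above 0 for 8 of 10 (median 1.40). Hspa1a and Hspa1b had lower means in Des-/- swim than in Des+/+ swim libraries, at 39.4 against 120.5 and 43.0 against 163.9 CPM. None of these markers was at 0 in all libraries of a group. Sums over all libraries were 4118 to 7967 CPM for 8 endothelial, 2443 to 5218 CPM for 7 mural, 0.996 to 48.2 CPM for 6 neutrophil and 1.82 to 7.59 CPM for 6 lymphocyte markers, and Ly6g, a defining neutrophil marker, was at 0 in all 12. Replicate 3 of both Des-/- groups held the highest fibroblast and macrophage sums of its group and lay at the end of the first principal component, which carried 48.9% of the variance.

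3 members differed by genotype without swimming. Bax and Bak1 were higher and Bnip3 was lower in Des-/- libraries, which makes 3 of 9 members, against 32.0% of all genes tested (called at an adjusted p under 0.05 in edgeR's quasi-likelihood test). Of all genes, 14.0% were called higher and 18.0% lower, and at an unadjusted p under 0.05 there were 4 members against 43.7% of all genes. After swimming Bnip3 and Bbc3 were lower in Des-/- libraries, 2 of 9 members against 10.6% of all genes, of which 5.01% were higher and 5.57% lower. There 4 members had an unadjusted p under 0.05, against 30.5% of all genes. With upper-quartile in place of TMM scaling, the genes called higher and lower numbered 2492 and 2034 rather than 1840 and 2370 without swimming, and 948 and 456 rather than 659 and 733 after it, while all members named here stayed called. The share of members called was near the background without swimming, and the direction and size of the single genes carry the description below. Swimming called 0 of 9 members in Des+/+ libraries, where edgeR called 0.0912% of all genes, although 6 members had an unadjusted p under 0.05 (20.5% of all genes) and DESeq2 called 2, Bcl2l1 and Ripk3. In Des-/- libraries it called 0 of 9 members against 0.0228% of all genes, with 3 members at an unadjusted p under 0.05 (16.7% of all genes) and 1, Bnip3, called by DESeq2.

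**Figure D1:**
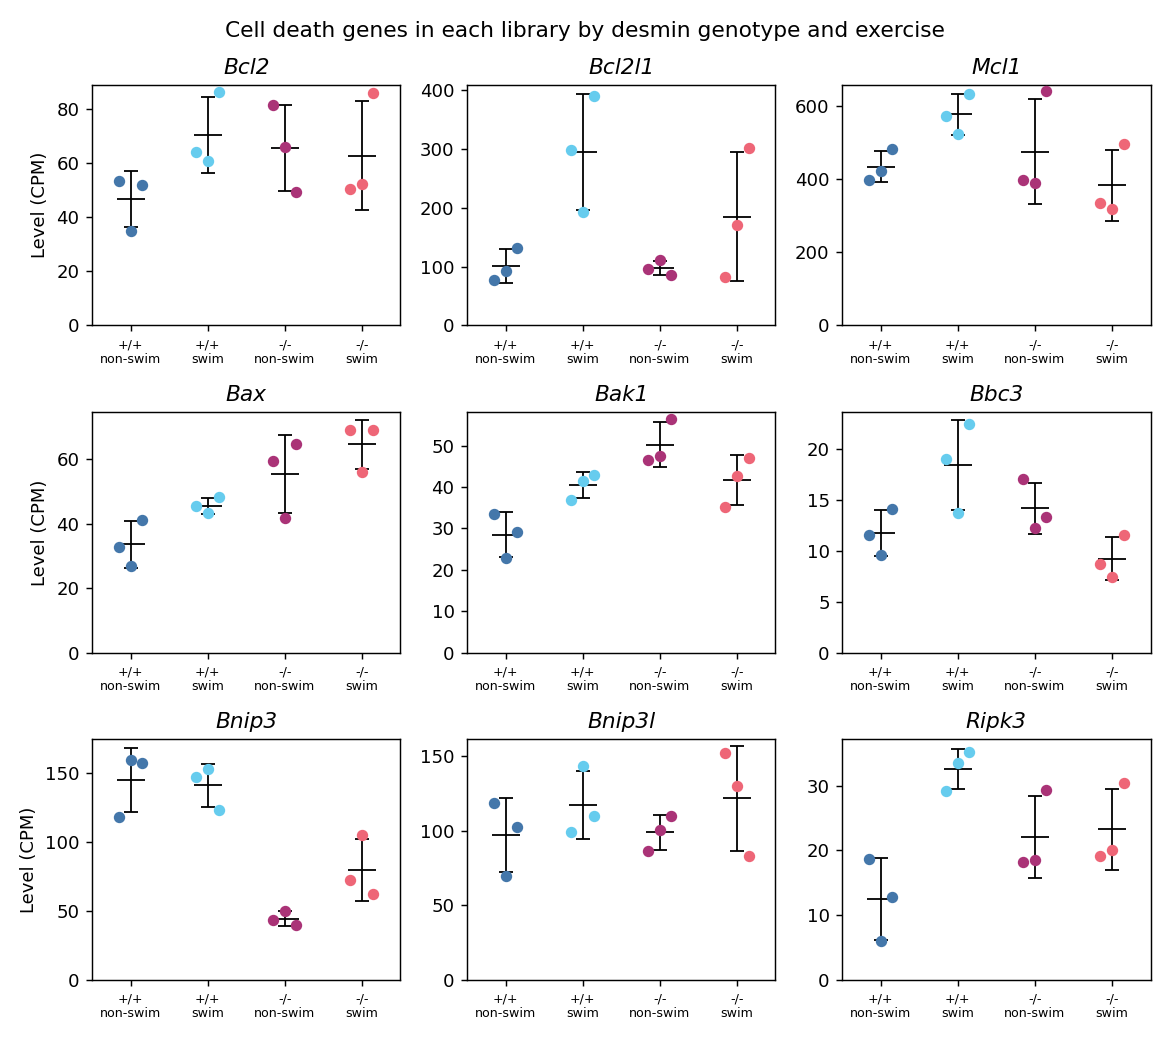
Levels of the 9 genes in CPM (vertical axes, from 0) in each library of the 4 groups (horizontal axis; points are libraries, black lines the mean and SD of 3). Bnip3 lies between 118 and 159 CPM in all 6 Des+/+ libraries and between 39.5 and 105 CPM in the 6 Des-/- libraries, while the groups of Bnip3l overlap throughout.

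Bnip3 (GRCm38 chr7:138890836-138909519) showed the largest difference by genotype without swimming among the members. Its levels were 118, 159 and 157 CPM in Des+/+ non-swim and 43.0, 50.2 and 39.5 CPM in Des-/- non-swim libraries. The groups did not overlap, and Bnip3 was 3.27-fold lower without desmin (log2 difference -1.71, SE 0.20, n = 3 per group, adjusted p = 0.00082). After swimming the levels were 147, 153 and 124 CPM in Des+/+ and 72.7, 105 and 61.9 CPM in Des-/- libraries. The groups again did not overlap, with Bnip3 1.77-fold lower in Des-/- (log2 difference -0.83, SE 0.20, adjusted p = 0.028). This second call was lost in 5 of 12 fits that each left out 1 library: the log2 difference was -0.80, -0.76 and -0.92 without replicates 1, 2 and 3 of Des+/+ swim, and -0.76 and -0.67 without replicates 1 and 3 of Des-/- swim, with adjusted p from 0.068 to 0.083. The call without swimming held in 12 of 12 such fits, at log2 differences from -1.84 to -1.63. The call after swimming was also lost without replicate 3 of both Des-/- groups (log2 difference -0.67, adjusted p = 0.051). It was lost too with only the libraries compared in the fit (-0.82, adjusted p = 0.053). The summed cardiomyocyte markers were lower in the same Des-/- libraries, and their part in the Bnip3 result was not tested. In bulk libraries, fewer cells of a type and less RNA per cell cannot be told apart. Bnip3 overlaps Gm45507 and Gm18258 on the opposite strand. Neither has a row among the genes counted, so their share in the Bnip3 counts, if a library did not keep strand, could not be checked.

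The Bnip3 level of Des+/+ libraries was 145 ± 23.3 CPM without swimming and 141 ± 15.6 CPM after it (SD, n = 3), a log2 difference of -0.04 with a 95% interval from -0.47 to 0.40. Without desmin its level was 44.2 ± 5.42 CPM without swimming and 79.8 ± 22.4 CPM after it (SD, n = 3), and every swim library lay above every non-swim library. The log2 difference of 0.85 (SE 0.20) did not pass the test over all genes (adjusted p = 0.19), whereas DESeq2 gave an adjusted p of 0.015. The swimming differences of the 2 genotypes differed by 0.88 on the log2 scale (SE 0.28, adjusted p = 0.21). In this comparison 9 of 10 cardiomyocyte markers had log2 differences above 0 (median 0.45) and 0 of 10 fibroblast markers (median -0.93), and their part in the Bnip3 values was not tested. Marker sums of the Des-/- groups overlapped, at 6338 to 30737 CPM without and 15870 to 26860 CPM after swimming for cardiomyocytes and at 8459 to 40195 and 4052 to 13733 CPM for fibroblasts.

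Bnip3l (chr14:66985239-67008877), the close relative of Bnip3, was called in none of the comparisons by edgeR, at unadjusted p of 0.12 or more. It measured 118, 69.8 and 102 CPM in Des+/+ non-swim and 86.5, 100.4 and 109.8 CPM in Des-/- non-swim libraries. The ranges overlapped, with a log2 difference of 0.03 and an interval from -0.51 to 0.57 (adjusted p = 0.94). After swimming the values were 99.2, 143 and 109.9 CPM in Des+/+ and 152, 129.9 and 83.1 CPM in Des-/-, again overlapping, with a log2 difference of 0.05 (interval -0.49 to 0.59, adjusted p = 0.90). Swimming gave log2 differences of 0.28 in Des+/+ (adjusted p = 0.54) and 0.30 in Des-/- (adjusted p = 0.55). Per length, the ratio of Bnip3l to Bnip3 was 0.41 ± 0.17 in Des+/+ non-swim, 0.49 ± 0.08 in Des+/+ swim, 1.33 ± 0.26 in Des-/- non-swim and 0.91 ± 0.27 in Des-/- swim libraries (SD, n = 3). The highest Des+/+ library reached 0.59 and the lowest Des-/- library 0.73, so Bnip3 outweighed Bnip3l in every Des+/+ library. It also did so in replicates 2 and 3 of Des-/- swim, at ratios of 0.73 and 0.79.

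Bax (chr7:45461697-45466898), the pore former that moves from the cytosol to mitochondria, measured 32.8, 26.9 and 41.1 CPM in Des+/+ non-swim and 59.6, 41.9 and 64.9 CPM in Des-/- non-swim libraries. Bax overlaps Gm45808, annotated as protein coding, on the same strand. That gene has no row among the genes counted, so its share in the Bax counts could not be checked. The groups were separate, though replicate 2 of Des-/- (41.9) stood just above replicate 3 of Des+/+ (41.1). Bax was 1.65-fold higher without desmin (log2 difference 0.72, SE 0.19, adjusted p = 0.014). The call was lost without replicate 2 of Des+/+ non-swim (log2 difference 0.58, adjusted p = 0.060), without replicate 3 of Des-/- non-swim (0.60, adjusted p = 0.056) and with only the libraries compared in the fit (0.74, adjusted p = 0.051). After swimming the levels were 45.5, 43.2 and 48.2 CPM in Des+/+ and 69.1, 56.0 and 69.3 CPM in Des-/- libraries. These groups did not overlap either, but the log2 difference of 0.51 (SE 0.19) had an adjusted p of 0.099. Averaged over both exercise states, which sets 6 libraries against 6, Bax was 1.53-fold higher in Des-/- (log2 difference 0.61, SE 0.13, adjusted p = 0.0045), a call held in 12 of 12 fits that left out 1 library.

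Bak1 (chr17:27019810-27029009), the pore former that resides on the mitochondrion, measured 33.6, 22.8 and 29.0 CPM in Des+/+ non-swim and 46.6, 47.6 and 56.4 CPM in Des-/- non-swim libraries. Every Des-/- library lay above every Des+/+ library, a 1.76-fold difference (log2 difference 0.82, SE 0.16, adjusted p = 0.0041) that was called in 12 of 12 fits with 1 library left out. After swimming, 36.8, 41.5 and 42.8 CPM in Des+/+ and 35.1, 42.6 and 47.1 CPM in Des-/- libraries overlapped almost fully, with a log2 difference of 0.04 and an interval from -0.32 to 0.40 (adjusted p = 0.88). The genotype differences with and without swimming differed by -0.77 on the log2 scale (SE 0.23, unadjusted p = 0.0064), but not after adjustment over all genes (adjusted p = 0.20). Bak1 overlaps Ggnbp1 on the opposite strand, which held 38 to 283 counts per library, and reads of the pair could be mixed if a library did not keep strand. Fibroblast and macrophage marker sums were higher in the Des-/- non-swim libraries in which Bax and Bak1 were higher, and their part in these results was not tested.

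Bbc3 (chr7:16308393-16318205), the BH3-only activator, was among the lowest members. Its levels without swimming were 11.6, 9.58 and 14.1 CPM in Des+/+ and 17.0, 12.2 and 13.3 CPM in Des-/- libraries, which overlapped (log2 difference 0.27, SE 0.25, adjusted p = 0.43). After swimming they were 19.0, 13.7 and 22.5 CPM in Des+/+ and 8.67, 7.44 and 11.6 CPM in Des-/- libraries. The groups were separate, and Bbc3 was 1.98-fold lower in Des-/- (log2 difference -0.99, SE 0.25, adjusted p = 0.033). Leaving out 1 library ended this call in 4 of 12 fits: the log2 difference was -0.97 and -0.82 without replicates 1 and 3 of Des+/+ swim, and -0.94 and -0.86 without replicates 1 and 2 of Des-/- swim, with adjusted p from 0.081 to 0.12. The call was also lost with only the libraries compared in the fit (-0.98, adjusted p = 0.057). Means without and after swimming were 11.7 ± 2.25 and 18.4 ± 4.43 CPM in Des+/+ and 14.2 ± 2.51 and 9.22 ± 2.11 CPM in Des-/- libraries (SD, n = 3). Neither swimming difference passed the test (log2 difference 0.64 and -0.61, adjusted p = 0.18 and 0.27). The interaction had the smallest unadjusted p of the members (-1.26 on the log2 scale, SE 0.36, unadjusted p = 0.0043), with an adjusted p of 0.20. Counts behind these levels averaged 149 reads in Des+/+ swim and 56.7 reads in Des-/- swim libraries, and the latter was the lowest mean of any member in any group. Summed cardiomyocyte markers were 15870 to 26860 CPM in Des-/- swim against 32868 to 53778 CPM in Des+/+ swim libraries. Fibroblast sums were 4052 to 13733 against 2332 to 3422 CPM. The part of these cell types in the Bbc3 result was not tested.

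Among the protective members, Mcl1 (chr3:95658788-95663176), a short-lived protein with a large role in heart muscle, was the most abundant. It measured 397, 423 and 482 CPM in Des+/+ non-swim and 396, 389 and 639 CPM in Des-/- non-swim libraries. The ranges overlapped, with 1 Des-/- library, replicate 3, above the rest (log2 difference 0.13, SE 0.23, adjusted p = 0.70). After swimming the values were 572, 523 and 633 CPM in Des+/+ and 334, 318 and 495 CPM in Des-/- libraries. These groups were separate, but the log2 difference of -0.59 (SE 0.23) was not called (adjusted p = 0.11). Without replicate 3 of both Des-/- groups it was -0.81 with an adjusted p of 0.015, and without replicate 3 of Des-/- non-swim alone -0.60 with an adjusted p of 0.045.

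Bcl2l1 (chr2:152780668-152831728), which encodes Bcl-xL, carried the widest swimming difference of the members. Its levels in Des+/+ libraries were 77.3, 93.3 and 132 CPM without and 299, 193 and 390.5 CPM after swimming. All swim libraries exceeded all non-swim libraries by a fitted 2.91-fold (log2 difference 1.54, SE 0.40), and the adjusted p was 0.0996 in edgeR and 0.0046 in DESeq2. For Des-/- the levels were 96.1, 110.4 and 85.9 CPM without and 82.3, 171 and 302 CPM after swimming. Here replicate 1 stayed at the non-swim level while replicates 2 and 3 stood above it, and the log2 difference of 0.93 (SE 0.40) had an adjusted p of 0.28. It was 0.38 without replicate 3 of Des-/- swim and 0.30 without replicate 3 of both Des-/- groups. Averaged over both genotypes, swimming gave a log2 difference of 1.23 (SE 0.28, adjusted p = 0.064 in edgeR), and DESeq2 called it. By genotype, Bcl2l1 gave log2 differences of -0.05 without (adjusted p = 0.94) and -0.67 after swimming (adjusted p = 0.27). The latter was -0.32 without replicate 1 of Des-/- swim and -1.22 without its replicate 3, and it was called without replicate 3 of both Des-/- groups (-1.21, adjusted p = 0.047).

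Bcl2 (chr1:106538178-106714274), the founding member of the family, measured 53.6, 34.9 and 52.1 CPM in Des+/+ non-swim and 81.5, 66.2 and 49.4 CPM in Des-/- non-swim libraries. The groups overlapped (log2 difference 0.49, SE 0.26, adjusted p = 0.17). Without replicate 3 of both Des-/- groups the log2 difference was 0.72 with an adjusted p of 0.026. After swimming the values were 64.4, 60.8 and 86.5 CPM in Des+/+ and 50.5, 52.3 and 86.1 CPM in Des-/- libraries, again overlapping (log2 difference -0.16, adjusted p = 0.70). Swimming gave 0.59 in Des+/+ (SE 0.26, adjusted p = 0.23), where the groups were separate, and -0.06 in Des-/- libraries (adjusted p = 0.92).

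Ripk3 (chr14:55784995-55788865), the necroptosis kinase, measured 18.7, 5.96 and 12.7 CPM in Des+/+ non-swim and 29.2, 33.5 and 35.1 CPM in Des+/+ swim libraries. The groups did not overlap, and the log2 difference of 1.38 (SE 0.35) corresponded to 2.61-fold, with an adjusted p of 0.091 in edgeR and 0.0058 in DESeq2. Summed cardiomyocyte markers of these groups did not overlap, at 68618 to 101528 CPM without and 32868 to 53778 CPM after swimming, whereas macrophage sums did, and their part was not tested. Among Des-/- libraries it measured 18.2, 18.6 and 29.3 CPM without and 19.2, 20.1 and 30.5 CPM after swimming, nearly the same set of values (log2 difference 0.08, interval -0.68 to 0.83, adjusted p = 0.93). Without swimming replicate 1 of Des+/+ lay above replicates 1 and 2 of Des-/-, and the log2 difference of 0.82 (SE 0.35) had an adjusted p of 0.091. Among the 20 other settings run it was called when replicate 1 of Des+/+ non-swim was left out (log2 difference 1.22, adjusted p = 0.027) and under the study's filter, and it was 0.49 without replicate 2 of Des+/+ non-swim (adjusted p = 0.24). That filter uses an unadjusted p of at most 0.05 and a log2 difference of at least 0.6. The swimming differences of the genotypes differed by -1.31 (SE 0.49, unadjusted p = 0.021, adjusted p = 0.24).

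**Figure D2:**
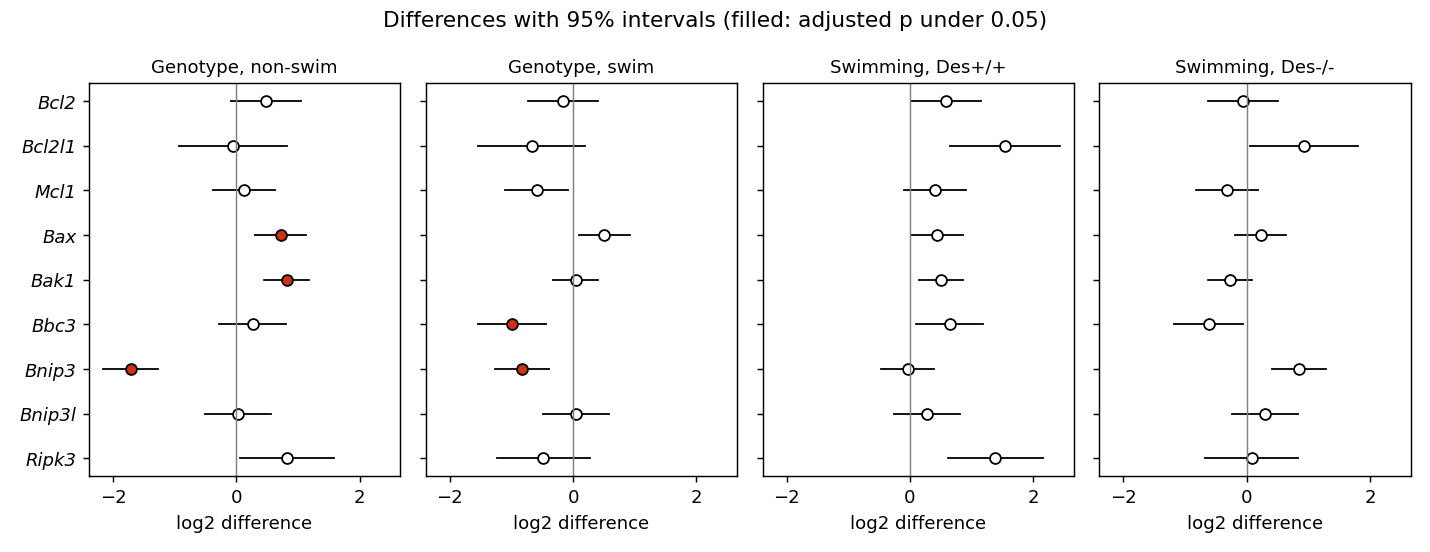
Log2 differences of the 9 genes (horizontal axes; points are fitted differences, lines their 95% intervals) for genotype (Des-/- minus Des+/+) and for swimming (swim minus non-swim); filled points have an adjusted p under 0.05. Bnip3, Bax and Bak1 are filled without swimming, Bnip3 and Bbc3 after it, and no point is filled for swimming, where Bcl2l1 (1.54) and Ripk3 (1.38) lie farthest from 0 in Des+/+ libraries.

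Seen over all 9 members, swimming in Des+/+ libraries gave positive log2 differences for 8, with a median of 0.50 against -0.08 over all genes tested. The log2 difference was above 0 for 0 of 10 cardiomyocyte markers in the same comparison (median -0.83, 0 called), and their part in the differences of the members was not tested. For 6 members (Bcl2, Bcl2l1, Mcl1, Bax, Bak1 and Ripk3) every swim library exceeded every non-swim library, against 12.5% of all genes with such separation upwards, 18.7% downwards and 31.3% in either direction. For swimming in Des-/-, 5 of 9 differences were positive, with a median of 0.08 against -0.01 over all genes. Only Bnip3 upwards and Bbc3 downwards had separate groups there, 2 of 9 members against 19.4% of all genes (10.4% upwards). The interaction of genotype and swimming was called for 0 of 9 members and for 0% of all genes by edgeR. At an unadjusted p under 0.05 it included 5 members (Mcl1, Bak1, Bbc3, Bnip3 and Ripk3) against 16.3% of all genes, and DESeq2 called 0 members. The smallest adjusted interaction p of a member was 0.20, so a difference between the genotypes in their response to swimming was not shown for any of them. By genotype, separate groups were seen for 3 of 9 members without swimming (47.9% of all genes, 23.0% with Des-/- higher and 24.9% with Des-/- lower). After swimming they were seen for 4 of 9 (Mcl1, Bax, Bbc3 and Bnip3), against 35.9% of all genes, 17.3% with Des-/- higher and 18.6% lower. The comparisons share groups of libraries, so these counts are not independent of each other.

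Averaged over both exercise states, the genotypes differed for Bax, Bak1 and Bnip3, 3 of 9 members against 39.9% of all genes (19.3% higher and 20.6% lower, or 2539 and 2711 genes, which upper-quartile scaling made 3389 and 2121). The same 3 had an unadjusted p under 0.05, against 49.3% of all genes. Mcl1, at -0.23, was called only in the fit without replicate 3 of both Des-/- groups, among the alternatives run (-0.44, adjusted p = 0.0094). Bnip3 was 2.41-fold lower (log2 difference -1.27, SE 0.14, adjusted p = 0.00022), and it was the only member whose 6 Des-/- libraries all lay to 1 side of the 6 Des+/+ libraries, as did 14.2% of all genes (5.64% higher and 8.51% lower). Bak1 was 1.35-fold higher (log2 difference 0.43, SE 0.12, adjusted p = 0.013). For swimming averaged over both genotypes, edgeR called 0 of 9 members against 0.828% of all genes (0.616% higher and 0.213% lower). In that comparison 4 members had an unadjusted p under 0.05 (19.6% of all genes), and DESeq2 called 1, Bcl2l1. The groups overlapped for all 9 members, while 1.02% of all genes had separate groups (0.654% higher and 0.365% lower).

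Levels per length put the members on a common scale, in CPM per kb of annotated exon. Mcl1 led in each group, at 127 ± 12.7 in Des+/+ non-swim, 169 ± 16.2 in Des+/+ swim, 139 ± 41.7 in Des-/- non-swim and 112 ± 28.6 in Des-/- swim libraries (SD, n = 3), and its libraries overlapped with no other member. Bnip3 came second in Des+/+ non-swim libraries at 63.9 ± 10.3, apart from both neighbours, but sixth in Des-/- non-swim libraries at 19.5 ± 2.39, where it overlapped with Bak1 at 20.8 ± 2.25. In that group Bax took the second place at 35.2 ± 7.65, overlapping with Bnip3l at 25.6 ± 3.03. Bcl2l1 was second in Des+/+ swim libraries at 64.1 ± 21.5, overlapping with Bnip3 at 62.3 ± 6.88. The lower end held Bcl2, Bbc3 and Ripk3 in all 4 groups. In Des+/+ non-swim libraries these 3 could not be ordered, with Bbc3 at 5.53 ± 1.06, Ripk3 at 5.44 ± 2.79 and Bcl2 at 5.12 ± 1.13. In Des-/- swim libraries Bbc3 was the lowest at 4.34 ± 0.99, below every library of Bcl2 at 6.87 ± 2.19.

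**Figure D3:**
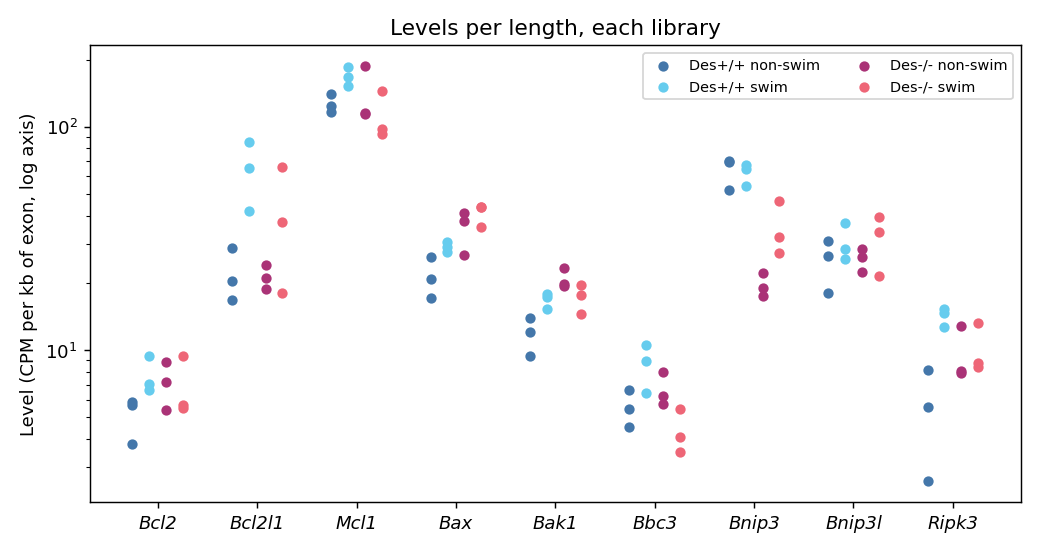
Levels per length of the 9 genes (vertical axis, CPM per kb of exon on a log axis), 1 point per library, coloured by group. Mcl1 lies above 92 in every library, and the Bnip3 points split by genotype, with 52.0 to 70.4 in Des+/+ and 17.4 to 46.4 in Des-/- libraries.

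Ratios within a library set the pore formers against their guards. The summed level per length of Bax and Bak1, divided by that of Bcl2, Bcl2l1 and Mcl1, was 0.22 ± 0.04 in Des+/+ non-swim and 0.19 ± 0.03 in Des+/+ swim libraries (SD, n = 3). Across the Des-/- groups it was 0.34 ± 0.05 without and 0.39 ± 0.10 after swimming (SD, n = 3). All 6 Des-/- libraries (0.289 or more) lay above all 6 Des+/+ libraries (0.250 or less). The levels of 14.2% of all genes, taken singly, also split these libraries by genotype. Summed cardiomyocyte markers did so at 30737 CPM or less in Des-/- and 32868 CPM or more in Des+/+ libraries. Fibroblast sums were 4052 CPM or more in Des-/- and 3890 CPM or less in Des+/+ libraries. The part of these cell types in the ratio was not tested. Much of the denominator is Mcl1, so the ratio follows the transcripts with the highest levels. The ratio of Bax to Bcl2 did not separate the genotypes without swimming, at 4.20 ± 0.57 in Des+/+ and 5.19 ± 2.14 in Des-/- libraries (SD, n = 3). After swimming it did, at 3.83 ± 0.51 and 6.29 ± 1.64 (SD, n = 3). The highest Des+/+ swim library stood at 4.13 and the lowest Des-/- swim library at 4.68. The ratio of Mcl1 to Bcl2l1 was 5.95 ± 1.01 without and 2.79 ± 0.75 after swimming in Des+/+ libraries, without overlap. Des-/- libraries had 6.75 ± 2.83 and 3.38 ± 1.80 (SD, n = 3), with overlap. These ratios compare transcripts and not proteins.

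**Figure D4:**
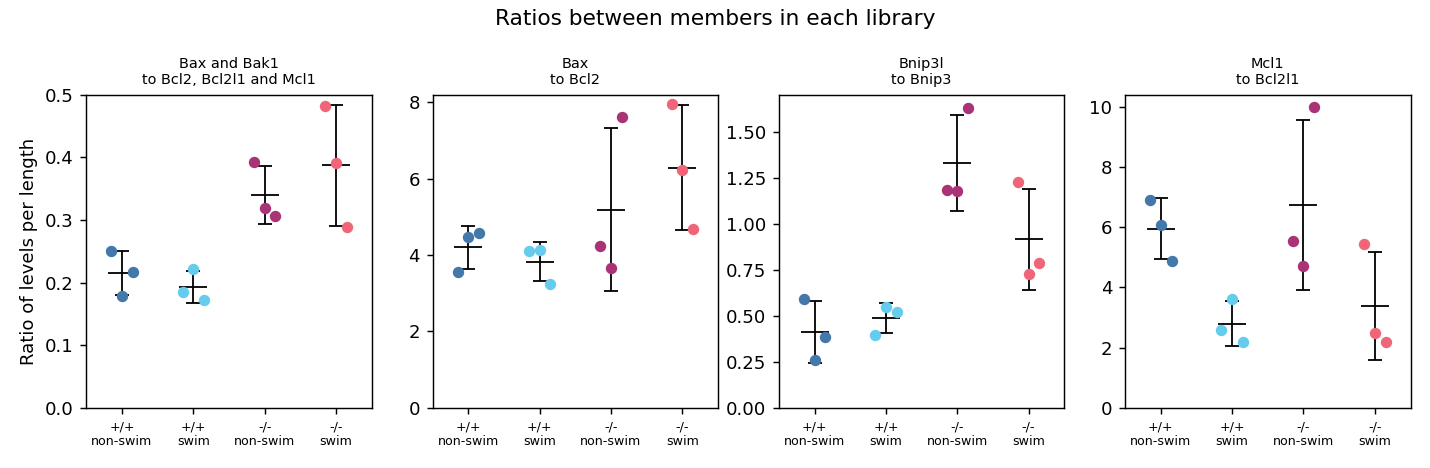
Ratios of levels per length (vertical axes, no unit, from 0) in each library of the 4 groups; points are libraries and black lines the mean and SD of 3. The panels of pore formers against guards and of Bnip3l against Bnip3 separate the genotypes in all 12 libraries, with Des+/+ at 0.250 or less against 0.289 or more, and at 0.59 or less against 0.73 or more. Summed cardiomyocyte and fibroblast markers split the same 12 libraries, and their part was not tested.

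For each member, the genes with the most similar course over the 12 libraries were found by Pearson r of log2 CPM among 12157 genes, as a description that group differences alone can produce. Bnip3 ran closest to Mrpl38, a mitochondrial ribosomal protein (r = 0.96), Adipor1, an adiponectin receptor (0.95), and Chchd2, a mitochondrial protein (0.95). Bak1 ran closest to Map1a (0.97), Twist2 and Cfl1 (both 0.96), and Bax to Eef1a1, a translation elongation factor (0.96), Taf1d and Anp32b (both 0.95). Twist2 and Cfl1 encode a mesenchymal transcription factor and an actin regulator. Ripk3 ran with Tpm4 (0.97), Pgm2 and Lgals9 (both 0.95), Bcl2l1 with Cdc42ep4 (0.96), Peli2 and Map3k6 (both 0.95), and Bcl2 with Fkbp1a (0.96), Fbxl7 (0.95) and Tnfaip1 (0.94). Mcl1 ran with Ifrd1 (0.95), Tbc1d9 (0.92) and Siah2 (0.91), Bnip3l with Prkd3 (0.92), Osbpl10 (0.91) and Slc6a6 (0.90), and Bbc3 with Arf2 (0.87), Irf2bpl (0.86) and Nf1 (0.85). Bbc3 had the lowest r with its closest gene of the 9.

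The pathways around the members were followed with 8 lists that hold 120 distinct further genes, of which 112 were tested. Without swimming 50 of these 112 differed by genotype (32.0% of all genes), and after swimming 21 (10.6% of all genes). In the lists below, counts by genotype are followed by their lowest and highest value over 12 fits that each left out 1 library. For swimming in Des+/+ libraries edgeR called 0 of 112, with 23 at an unadjusted p under 0.05 (20.5% of all genes) and 6 called by DESeq2. In Des-/- libraries it called 0 of 112, with 15 at an unadjusted p under 0.05 (16.7% of all genes) and 3 called by DESeq2. The interaction was called for 0 of 112, with 16 at an unadjusted p under 0.05 (16.3% of all genes) and 1 called by DESeq2. Over all genes edgeR called 0.0912%, 0.0228% and 0% in these comparisons, in that order. Some of the genes lie in 2 lists. The lists were chosen with earlier results of these data known, so their counts beside the share of all genes are descriptions. Cardiomyocyte marker sums were lower and fibroblast and macrophage sums higher in Des-/- than in Des+/+ non-swim libraries, and their part in the lists was not tested. Levels below are given from Des+/+ to Des-/- and, where nothing else is said, without swimming.

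Genes of the mitophagy list, which leaves out Bnip3 and Bnip3l and also holds Ppif, were often lower without desmin. Of 16 tested members of the mitophagy list, 12 were lower and 0 higher in Des-/- non-swim libraries, with a median log2 difference of -0.56 against 0.04 over all genes, of which 18.0% were called lower. Ppif, which encodes cyclophilin D, a regulator of the mitochondrial permeability transition, fell from 181 ± 39.2 to 42.7 ± 21.6 CPM (log2 difference -2.08, adjusted p = 0.0018). Pink1, the kinase that marks damaged mitochondria, fell from 770.5 ± 108 to 256 ± 88.2 CPM (log2 difference -1.59, adjusted p = 0.0014). Map1lc3a, an autophagosome protein, fell by 1.63 and Optn, an autophagy adaptor, by 1.39 on the log2 scale. The count of 12 was 8 to 12 with 1 library left out and 7 under the study's filter. After swimming 5 of 16 were lower and 0 higher, against 5.57% of all genes lower, with a median of -0.37. That count was 0 to 6 with 1 library left out, and 0 without replicates 1 or 3 of Des+/+ swim or replicate 2 of Des-/- swim. The cardiomyocyte marker sums were lower in the same libraries, and their part was not tested.

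The caspase list had genes called in both directions. Of 18 genes, 3 were higher and 4 lower without swimming, 7 in all against 32.0% of all genes, and 4 to 7 with 1 library left out, the lowest without replicate 2 of Des+/+ non-swim. Those that fell included Cycs, cytochrome c, from 196 ± 17.9 to 55.2 ± 16.6 CPM (log2 difference -1.83, adjusted p = 0.00085), Endog, a mitochondrial nuclease (-1.61), and Aifm1, the mitochondrial apoptosis-inducing factor (-1.31). All 3 of these calls held in 12 of 12 fits with 1 library left out. Summed cardiomyocyte markers were lower in the same Des-/- libraries, and their part was not tested. After swimming 2 were higher and 2 lower, against 10.6% of all genes called, and 0 to 4 with 1 library left out, the lowest without replicate 3 of Des+/+ swim. Among them was Dffb, the caspase-activated DNase, which was higher in Des-/- by 0.99 on the log2 scale (adjusted p = 0.025), a call lost without replicates 2 or 3 of Des+/+ swim or replicates 1 or 2 of Des-/- swim, with the log2 difference staying between 0.90 and 1.16.

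Other Bcl2 family genes were counted beside the members: of 14 tested, 3 were higher and 1 lower without swimming, against 32.0% of all genes called. The count of 4 was 2 to 6 with 1 library left out, the lowest without replicates 2 or 3 of Des+/+ non-swim or replicate 3 of Des-/- non-swim. Bok, a Bax-like pore former, rose from 14.9 ± 2.13 to 35.6 ± 5.03 CPM (log2 difference 1.26, adjusted p = 0.0022), alongside Bax and Bak1. Bcl2l13, a mitophagy receptor of the family, fell from 100.7 ± 19.5 to 51.2 ± 14.1 CPM (log2 difference -0.98, adjusted p = 0.0037), alongside Bnip3. Both calls held in 12 of 12 fits with 1 library left out. Bid rose by 1.42 on the log2 scale from a level of 2.22 ± 0.19 CPM, and Bcl2a1b, a leukocyte gene with near-identical copies whose reads may be split, by 5.09. Both lost their calls without replicate 3 of Des-/- non-swim (0.88 and 2.81), where the macrophage sum was 2491 CPM, and without replicates 2 or 3 of Des+/+ non-swim, Bid also without its replicate 1.

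Upstream of Ripk3, the death receptor list had 6 higher and 0 lower of 14 tested genes without swimming, against 14.0% of all genes called higher. The count of 6 was 3 to 7 with 1 library left out, the lowest without replicates 2 or 3 of Des+/+ non-swim or replicate 3 of Des-/- non-swim. After swimming 2 of 14 were higher and 0 lower, against 5.01% of all genes called higher, and 0 to 2 with 1 library left out. Casp8, the initiator caspase that restrains Ripk3, rose from 34.3 ± 6.81 to 60.7 ± 12.8 CPM (log2 difference 0.82, adjusted p = 0.0097), and Tradd, an adaptor, from 11.4 ± 1.51 to 22.3 ± 2.48 CPM (0.97, adjusted p = 0.0046). Both held in 12 of 12 fits with 1 library left out. Tnfrsf1a, Tnfrsf1b and Tnf rose by 0.61, 1.57 and 3.17 on the log2 scale, but without replicate 3 of Des-/- non-swim the values were 0.49, 0.76 and 1.86 and no longer called. Leaving out replicates 2 or 3 of Des+/+ non-swim ended all 3 calls too, as did its replicate 1 for Tnfrsf1b and replicate 1 of Des-/- non-swim for Tnfrsf1a. In the necroptosis list 2 of 11 genes were higher and 2 lower, against 32.0% of all genes called, and the 4 became 2 to 5 with 1 library left out, the lowest without the same 3 libraries. Ripk1 and Mlkl, the partners of Ripk3 up- and downstream, rose by 0.83 and 0.84 without desmin. Both lost their calls without replicate 3 of Des-/- non-swim (0.49 and 0.75) and without replicates 2 or 3 of Des+/+ non-swim. Mlkl lost its call in 7 of 12 fits, also without replicates 1 or 2 of Des-/- non-swim, replicate 3 of Des+/+ swim or replicate 2 of Des-/- swim, with values from 0.61 to 1.06. Pgam5 and Camk2d fell by 0.83 and 1.02, held in 12 of 12 fits.

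The pyroptosis list, which holds the inflammasome, had 7 higher and 0 lower of 11 genes without swimming, with a median of 1.50, against 14.0% of all genes called higher. The count was 3 to 7 with 1 library left out, with 3 without any 1 of the Des+/+ non-swim libraries or replicate 3 of Des-/- non-swim, and also 3 with only the libraries compared. After swimming 2 were higher, with a median of 0.87, against 5.01% of all genes, and 0 to 3 with 1 library left out. Casp4 rose from 6.30 ± 3.03 to 21.1 ± 5.73 CPM (log2 difference 1.75, adjusted p = 0.0039) and Il18 by 2.80 on the log2 scale, both held in 12 of 12 fits with 1 library left out. Nlrp3, Il1b and Pycard rose by 3.97, 3.09 and 1.50, and without replicate 3 of Des-/- non-swim the differences were 0.30, 1.10 and 0.68 and not called. Leaving out any 1 of the 3 Des+/+ non-swim libraries also ended these calls, and Nlrp3 lost its call in 8 of 12 fits, also without any 1 Des+/+ swim library or replicate 1 of Des-/- swim, with values from 0.30 to 4.59. Macrophage markers were higher in the same libraries, and their part was not tested.

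The p53 list, to which Bbc3 and Bax are textbook additions, was divided: 3 of 17 genes were higher and 4 lower without swimming, against 32.0% of all genes called, and 1 higher and 4 lower after it, against 10.6%. With 1 library left out the counts were 5 to 9 without and 1 to 5 after swimming, the last being 1 without replicate 3 of Des+/+ swim and 3 without replicate 1 of Des+/+ swim or replicate 2 of Des-/- swim. Phlda3 rose from 19.9 ± 4.48 to 67.2 ± 15.4 CPM (log2 difference 1.75, adjusted p = 0.00077). Ccng1 fell from 838 ± 150 to 204 ± 80.9 CPM (-2.04, adjusted p = 0.0009), Perp by 1.85, Sesn1 by 1.33 and Aen by 0.70. All but Aen held in 12 of 12 fits with 1 library left out, and Aen lost its call without replicate 2 of Des+/+ non-swim or replicate 1 of Des-/- non-swim, at values of -0.79 to -0.55 over the 12 fits. In the HIF list, 4 of 15 genes were lower and 0 higher without swimming, against 18.0% of all genes called lower, with Bnip3 outside the count and a list median of 0.03. After swimming edgeR called 0 of 15, against 10.6% of all genes, and 0 to 2 with 1 library left out. The list median was -0.33, 5 genes had an unadjusted p under 0.05 (30.5% of all genes), and DESeq2 called 3. The 4 called without swimming were Egln3, an oxygen sensor, at 118 ± 37.6 against 28.8 ± 15.7 CPM (log2 difference -2.04, adjusted p = 0.0023), Pdk1 (-1.62), Egln1 (-1.43) and Vegfa (-1.31). Each was held in 12 of 12 fits with 1 library left out. For both lists, summed cardiomyocyte markers were lower in the same Des-/- libraries, and their part was not tested.

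**Figure D5:**
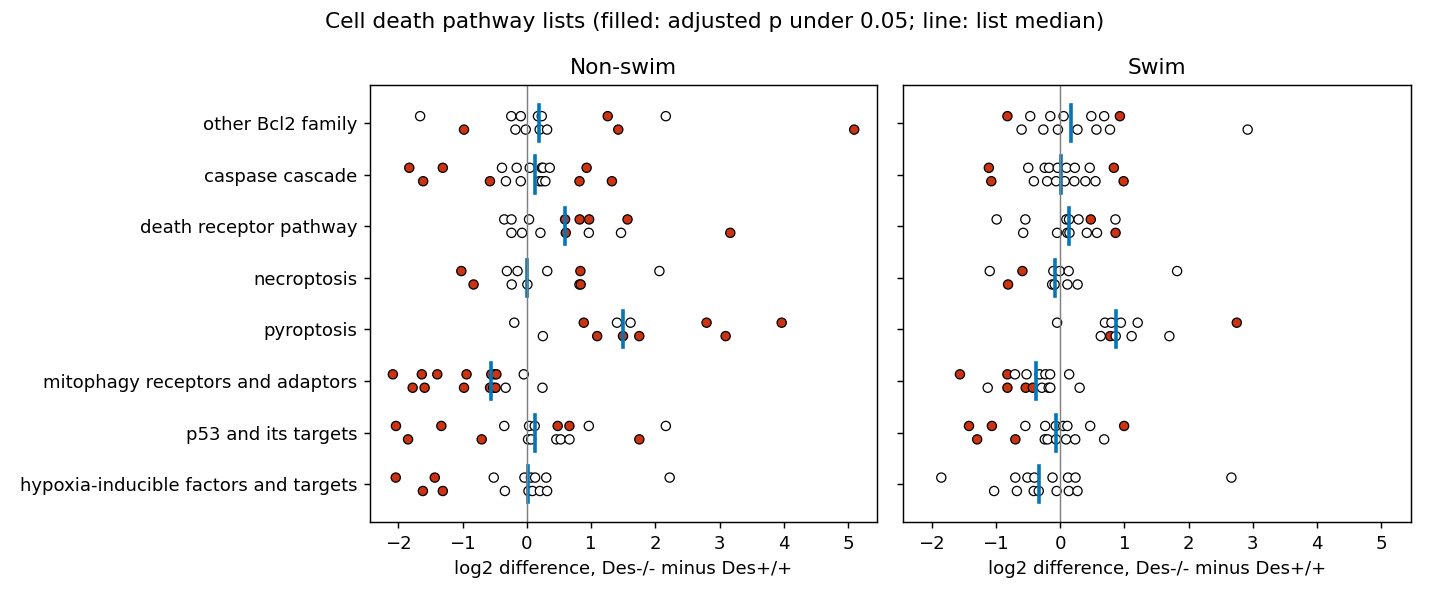
Log2 differences between genotypes (horizontal axes, Des-/- minus Des+/+) of every tested gene in 8 pathway lists, without and after swimming; filled points have an adjusted p under 0.05 and blue lines are list medians. The mitophagy median lies at -0.56 and the pyroptosis median at 1.50 without swimming, while the HIF list has its 4 filled points below -1.3.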

How the data were processed

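Each library gave 1 file of raw counts, which the authors made from single-end reads by alignment to GRCm38 with HISAT2 2.2.1, sorting with SAMtools 1.13 and counting per gene with HTSeq in its reverse-strand mode. The labels name an unstranded kit and the methods a directional one. Rows that name no gene held 53.5 to 59.5% of reads in Des+/+ non-swim, 63.6 to 68.4% in Des+/+ swim, 52.4 to 68.3% in Des-/- non-swim and 72.3 to 78.8% in Des-/- swim libraries and were left out, so this share moved with the groups, and its part in the results was not tested. The members and gene lists were chosen with earlier results of these data known.

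In R 4.3.3, edgeR 4.0.16 (filterByExpr, TMM) was fitted to 4 group means over 12 libraries (8 residual degrees of freedom), with Benjamini-Hochberg adjustment over 13158 genes. CPM are relative to TMM-scaled totals, and lengths are exon unions of GENCODE M21. From each list, up to 5 called genes with the largest differences and a mean count of at least 20 in a group are named, except items not reported here. Tested on simulated data for genotype without swimming (13050 genes), the test called 40 of 100 genes with a simulated log2 difference of 1, and 79 of 100 with a difference of 2. DESeq2 1.42.0 was an alternative. For swimming in Des-/-, replicate numbers paired the libraries by the data (correlations of deviations 0.32 to 0.60), not by the labels. Intervals cover the spread between libraries, and at 4320819 reads low counts limit precision.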

Additional observations from a re-analysis of the deposited data

How the results depend on the processing

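Bak1 and Bnip3 without swimming, and Bax, Bak1 and Bnip3 averaged over both exercise states, were called with each of the 12 libraries left out in turn. The count of members called by genotype after swimming, 2, became 0 when only the libraries compared were fitted and 0 to 3 with 1 library left out. For swimming in Des+/+ the count, 0, became 2 in DESeq2, 1 with only the libraries compared, 2 without replicate 3 of both Des-/- groups and 3 under the study's filter. For swimming in Des-/-, also 0, it became 1 in DESeq2 and 3 under that filter, for the interaction 5 under the filter, and for swimming averaged 1 with no filter on low counts, 1 in DESeq2, 2 under the study's filter and 0 to 1 with 1 library left out. The cause of these changes was not tested.

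With the replicate number as a block, members called by genotype after swimming numbered 4 (Mcl1 and Bax added), and no other count of members moved by over 1.5 times. The numbers did not pair these libraries by the data: correlations of deviations were -0.15 to 0.13 without swimming, 0.02 to 0.12 after it and -0.41 to 0.01 for swimming in Des+/+.

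The log2 difference changed sign for members that were not called in the comparison concerned. For genotype without swimming, Bcl2l1 (-0.05) was 0.053 with upper-quartile scaling, 0.010 with no filter on low counts, 0.030 with the block and 0.10 without replicate 3 of both Des-/- groups, and Mcl1 was -0.076 without those libraries. Without the same libraries Bak1 was -0.053 after swimming, Bnip3 0.046 for swimming in Des+/+, Ripk3 -0.051 for genotype averaged and Bbc3 -0.060 for swimming averaged. Bnip3 for swimming in Des+/+ was 0.0052 with no filter on low counts and 0.037 with only the libraries compared. The Bnip3l interaction was -0.033 with no filter and -0.0028 with the block, and Bbc3 for swimming averaged was -0.00077 with the block. With 1 library left out, the ranges that crossed 0 were -0.21 to 0.19 (Bcl2l1), -0.14 to 0.25 (Mcl1) and -0.16 to 0.20 (Bnip3l) without swimming, and -0.46 to 0.0066 (Bcl2), -0.059 to 0.15 (Bak1) and -0.14 to 0.26 (Bnip3l) after it. They were -0.16 to 0.051 (Bnip3) for swimming in Des+/+, -0.36 to 0.12 (Bcl2) and -0.17 to 0.35 (Ripk3) for swimming in Des-/-, -0.17 to 0.23 (Bnip3l) for the interaction, -0.058 to 0.15 (Bnip3l) for genotype averaged, and -0.067 to 0.19 (Mcl1) and -0.083 to 0.10 (Bbc3) for swimming averaged.

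Over all genes, calls without swimming (4210) ranged from 2612 to 4590 with 1 library left out. After swimming (1392) they were 2332 in DESeq2, 2313 under the study's filter and 74 to 2142 with 1 library left out. For swimming in Des+/+ (12) they were 54 with DESeq2 size factors in edgeR, 58 with no filter, 812 in DESeq2, 19 with the block, 282 with only the libraries compared, 743 without replicate 3 of both Des-/- groups, 1358 under the study's filter and 0 to 155 with 1 library left out. For swimming in Des-/- (3) they were 7 with no filter, 339 in DESeq2, 0 with only the libraries compared, 72 without those replicates, 1132 under the filter and 0 to 51. The interaction (0) had 328 in DESeq2 and 1704 under the filter. Swimming averaged (109) had 839 in DESeq2, 417 without those replicates, 758 under the filter and 6 to 284 with 1 library left out. Upper-quartile scaling moved the median of all genes by 0.10 for genotype without swimming. Bbc3 and Ripk3 were the members with the lowest counts, with group means as low as 56.7 and 117 reads.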
